A study of Homo sapiens with 30 samples.

Results

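CTSG, ELANE, PRTN3, AZU1, MPO, RNASE2 and MYB, 6 genes of promyelocyte granule proteins and the transcription factor that marks the same immature stage, were followed in THP-1 cells. They were chosen by gene symbol. The 7 genes, of 11963 genes with a probe set of their own on the array, had 9 probe sets of 19064. THP-1 is an established human acute monocytic leukaemia line. All 10 groups had first spent 24 h in 82 nM phorbol 12-myristate 13-acetate (PMA), an agent that makes these cells adherent and macrophage-like, and were then scraped off and replated. The flasks received no particles, multi-walled carbon nanotubes (MWCNT) at 10 or 100 µg/ml, or titanium dioxide nanobelts (TiO2-NB) at 10 or 100 µg/ml, and were harvested after 1 or 24 h. Each of the 10 combinations had 3 arrays, which the labels call biological replicates, and no group without PMA was analysed here.

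Azurophil granules are the first granules that a myeloid cell makes, and their proteins are transcribed in a short window at the promyelocyte stage. CTSG (cathepsin G), ELANE (neutrophil elastase) and PRTN3 (proteinase 3) encode serine proteases, AZU1 encodes azurocidin, a related protein that has lost protease activity, and MPO encodes myeloperoxidase. RNASE2 encodes the eosinophil-derived neurotoxin, a ribonuclease of granules that monocytic cells also express. MYB is a transcription factor of dividing progenitors, which binds the regulatory regions of several granule genes and is lost as myeloid cells mature.

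AZU1, PRTN3 and ELANE are consecutive protein-coding genes on chromosome 19, followed by CFD (complement factor D), another granule serine protease gene. RNASE2 lies on chromosome 14 beside RNASE3, and CTSG on the same chromosome between CMA1 and GZMH, which encode other serine proteases of granules. The promoters of CTSG, PRTN3, AZU1 and RNASE2 are shown because these granule genes moved in 1 direction in the results that follow. Of the 7 genes, 5 were found in the promoter table (RefSeq, GRCh38.p14). ELANE, which moved in the same direction, and MPO were not found there. Each sequence holds the 250 bases before the gene's start, read 5′ to 3′ on the gene's strand, and capitals mark matches to motifs of PU.1 (GAGGAA), MYB (AACNG) or C/EBP (TTNNGNAA) on either strand.
CTSG (chr14:24576251-24576500, minus strand): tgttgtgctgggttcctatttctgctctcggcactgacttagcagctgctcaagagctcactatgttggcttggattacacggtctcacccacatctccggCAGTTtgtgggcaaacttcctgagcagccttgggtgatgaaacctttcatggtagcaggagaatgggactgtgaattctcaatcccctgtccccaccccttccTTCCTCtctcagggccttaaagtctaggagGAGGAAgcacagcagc
PRTN3 (chr19:840749-840998, plus strand): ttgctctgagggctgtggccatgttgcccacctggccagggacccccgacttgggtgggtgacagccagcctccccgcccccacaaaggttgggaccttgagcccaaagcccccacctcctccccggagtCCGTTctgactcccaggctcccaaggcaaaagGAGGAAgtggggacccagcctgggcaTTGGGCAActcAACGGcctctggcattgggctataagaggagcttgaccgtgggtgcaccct
AZU1 (chr19:827587-827836, plus strand): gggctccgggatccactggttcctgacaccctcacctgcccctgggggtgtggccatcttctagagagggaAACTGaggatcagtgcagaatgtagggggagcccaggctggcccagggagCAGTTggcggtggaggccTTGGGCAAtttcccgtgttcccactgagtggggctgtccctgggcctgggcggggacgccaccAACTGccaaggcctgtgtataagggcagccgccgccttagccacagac
RNASE2 (chr14:20955237-20955486, plus strand): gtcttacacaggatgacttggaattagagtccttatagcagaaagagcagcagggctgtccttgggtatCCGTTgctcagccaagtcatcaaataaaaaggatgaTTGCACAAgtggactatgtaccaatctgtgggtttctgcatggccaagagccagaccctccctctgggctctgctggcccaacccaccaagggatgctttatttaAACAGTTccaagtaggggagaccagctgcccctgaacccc

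The MYB letters stood in all 5 promoters found, MYB's own among them, and in 70.6% of the 35116 promoters of the table. The PU.1 letters stood in the CTSG and PRTN3 promoters, against 23.6% of all promoters, and in CTSG a match ended 11 bases before the start. The C/EBP letters stood in PRTN3, AZU1 and RNASE2, against 33.2% of all promoters, and the PRTN3 and AZU1 matches had the same 8 letters, TTGGGCAA. In RNASE2 a pair of MYB matches overlapped. The letters TGTGGT, a RUNX motif, were in none of the 5 windows and in 11% of all promoters. These matches describe letters and not binding.

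The values are log2 intensities after RMA, a method that corrects the background, normalizes the arrays to each other and summarises the probes of a set. The medians of the arrays were 6.35 to 6.46 in a range of values of 1.89 to 14.42, and arrays of a group correlated at 0.991 or more. Levels of different genes are not compared, since probe sets differ in how strongly they bind. Tests came from 1 limma fit over 10050 genes, with Benjamini-Hochberg adjusted p-values for each of the 25 comparisons, and a gene is called where that p is under 0.05. Of 16 macrophage markers on the array 15 passed the filter on low values, and of 24 markers of lymphocytes, erythroid, epithelial and fibroblast cells, mature neutrophils, and eosinophils and basophils 14 did. By list, 4 of 5 lymphocyte, 2 of 3 erythroid, 1 of 4 epithelial and 2 of 4 fibroblast markers passed. So did 2 of 4 markers of mature neutrophils and 3 of 4 of eosinophils and basophils. EPCAM, MS4A1, FCGR3B and CLC were among those that did not pass.

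Within every group 1 of the 3 arrays stood apart. The first principal component of the deviations of genes from their group means, computed without the 7 genes, held 43% of the variance of these deviations at 1 h and 49.6% at 24 h. Since the deviations of 3 arrays sum to 0, 1 array always lies opposite the others. The array was replicate 2 in the control, both MWCNT groups and TiO2-NB 100 µg/ml at 1 h, and replicate 1 in TiO2-NB 10 µg/ml at 1 h. At 24 h it was replicate 3 in the control and both 10 µg/ml groups, and replicate 1 in both 100 µg/ml groups. Calls of the 7 genes that changed without these arrays are given with and without them.

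The largest changes of the granule genes were with time in culture. In the controls CTSG, ELANE, PRTN3, AZU1, RNASE2 and MYB fell between 1 and 24 h, and MPO was not called. For these 6 genes no array of the 24 h control reached the level of any 1 h control array. The falls ran from 7.9-fold for CTSG to 1.9-fold for MYB. With 6 of 7 genes called lower, 16.1% of all genes tested were called lower, and groups that did not overlap in this direction were found for 19.6% of all genes. The later harvest also lies further from PMA treatment and from replating, and these cannot be told apart by the design. In bulk RNA, fewer cells that express a gene and less RNA per cell cannot be told apart either.

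**Figure D1:**
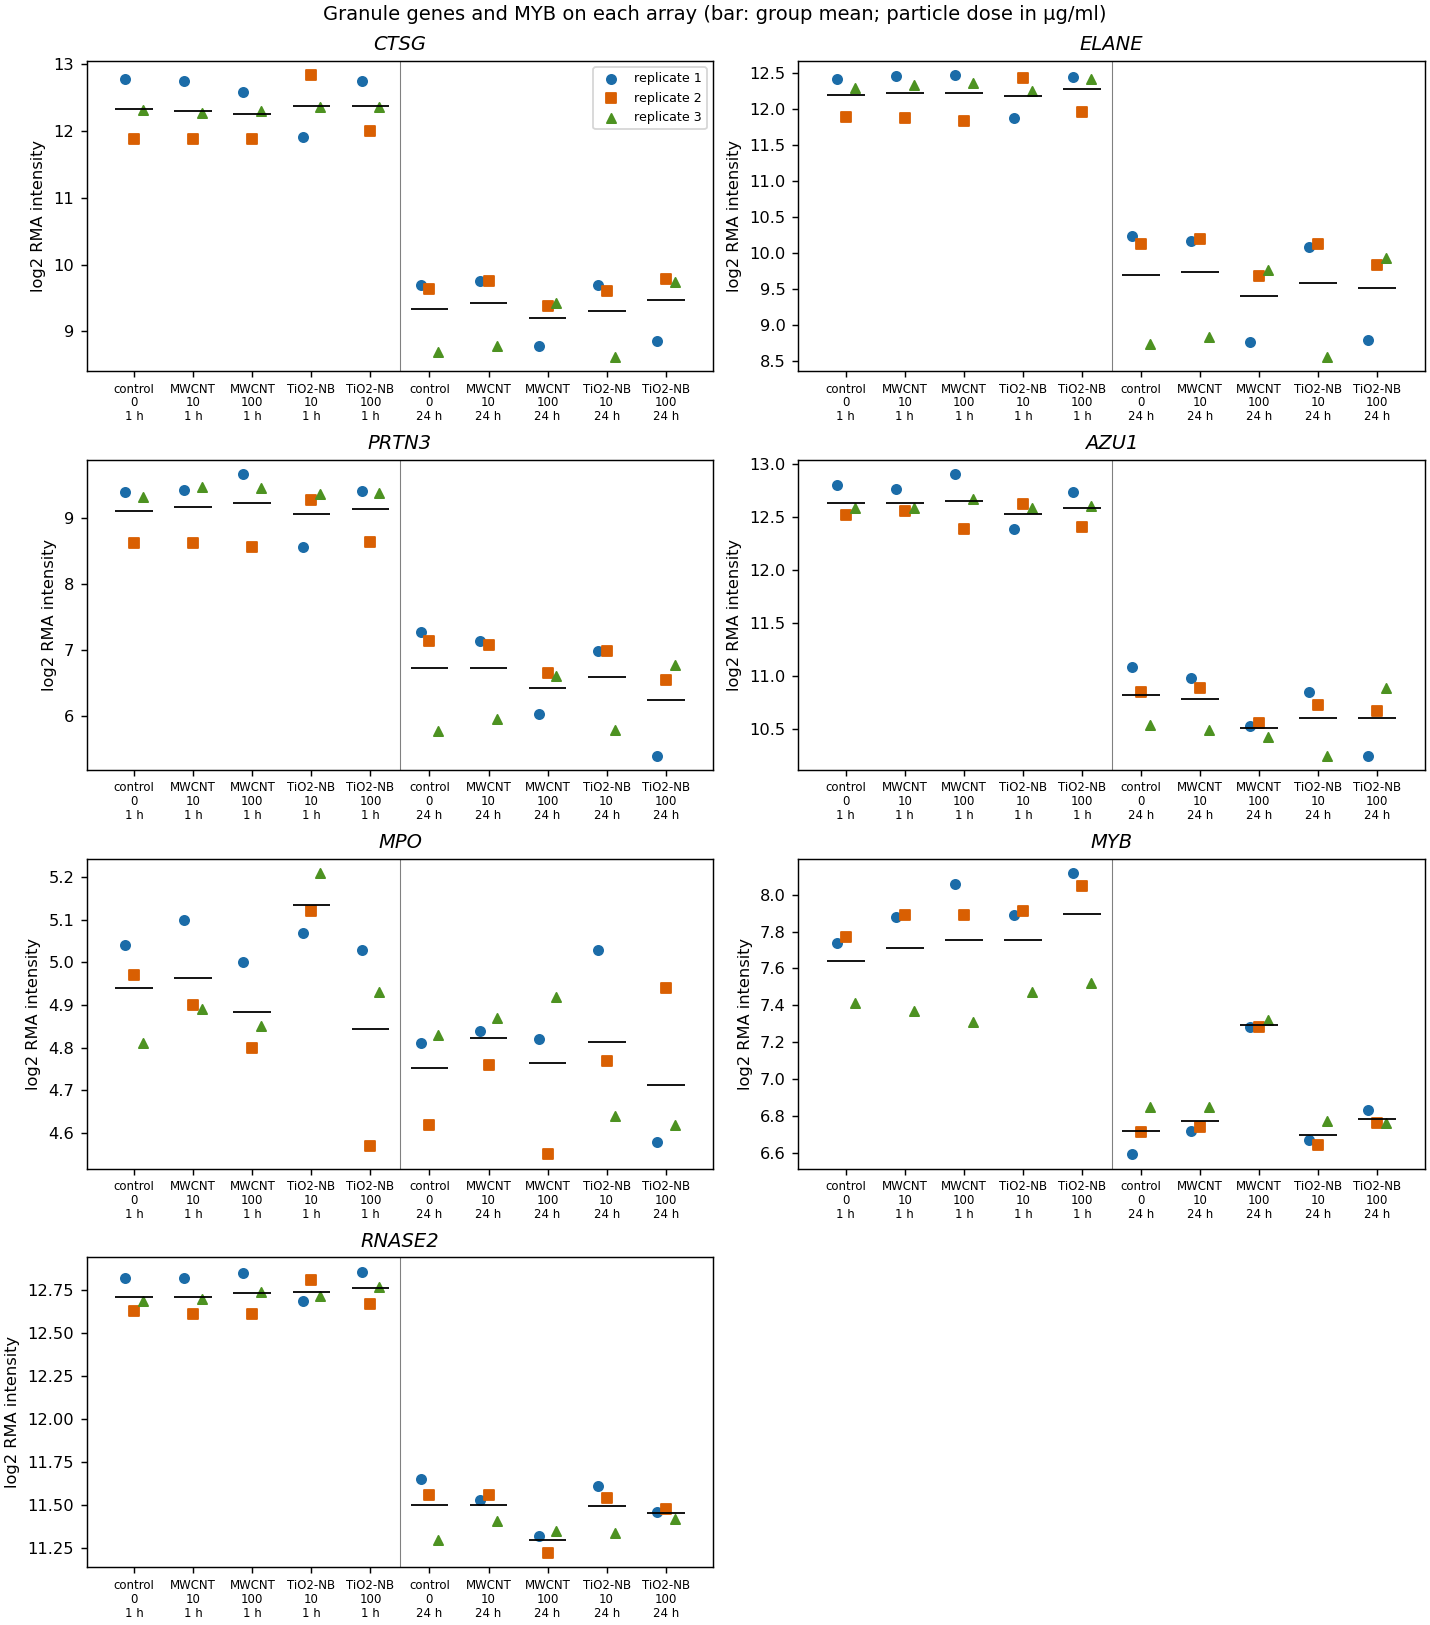
Log2 RMA intensity (vertical axis) of the 7 genes on each of the 30 arrays, by material, dose in µg/ml and time, with symbols for the replicate numbers and a bar for the group mean (n = 3). The axes differ between genes and do not start at 0. CTSG, ELANE, PRTN3, AZU1 and RNASE2 stand at 2 levels, high at 1 h and low at 24 h, while MYB with MWCNT 100 µg/ml at 24 h lies above the other 24 h groups.

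Among the proteases, CTSG stood at 12.78, 11.87 and 12.31 in the 3 control arrays at 1 h and at 9.69, 9.64 and 8.69 at 24 h. The difference was -2.98 ± 0.36 (SE, log2, n = 3 per group, adjusted p = 3.67e-07, limma), the 7th lowest of the 10050 genes. Cathepsin G is a granule protease that cleaves bacterial proteins and extracellular matrix. The lowest 1 h array was still more than 2 log2 units above the highest 24 h array.

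ELANE stood at 12.41, 11.89 and 12.29 in the 1 h control arrays and at 10.24, 10.13 and 8.74 in those of 24 h. Replicate 3 lay well below the other 24 h arrays, and the times did not overlap. The change was -2.49 ± 0.43 (SE, log2, adjusted p = 5.35e-05, limma), and ELANE ranked 26th from the lowest. Elastase degrades elastin and is the granule protease mutated in congenital neutropenia.

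PRTN3, the target of autoantibodies in granulomatosis with polyangiitis, stood at 9.39, 8.62 and 9.31 in the control arrays at 1 h and at 7.27, 7.13 and 5.78 at 24 h. Replicate 3 was again the low array at 24 h, and the means of the times were apart by more than the SD of either group (0.43 and 0.82). The difference was -2.38 ± 0.44 (SE, log2, adjusted p = 0.000115, limma).

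AZU1, which encodes an antimicrobial protein that also attracts monocytes, stood at 12.81, 12.52 and 12.59 in the 1 h control and at 11.09, 10.85 and 10.54 in the 24 h control. The difference of -1.81 ± 0.17 (SE, log2, adjusted p = 8.23e-09, limma) was a 3.51-fold fall. RNASE2 stood at 12.82, 12.63 and 12.69 at 1 h and at 11.65, 11.56 and 11.30 at 24 h. These were the tightest groups of the granule genes that fell, and the difference of -1.21 ± 0.09 (SE, log2) had the lowest adjusted p of the 7 genes, 8.13e-11 (limma). The RNASE2 probe set is annotated to that gene alone, and whether RNASE3 transcripts bind it was not tested.

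MYB stood at 7.74, 7.77 and 7.41 in the 1 h control and at 6.59, 6.71 and 6.85 in the 24 h control. The change was -0.93 ± 0.17 (SE, log2, adjusted p = 0.000106, limma), smaller than those of the granule genes that fell. A second MYB probe set, with values from 3.14 to 4.21, lay below the 25th percentile of the array throughout and was not used.

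MPO was close to the low end of the array's range. Its probe set with the higher mean lay between 4.55 and 5.21, above the 25th percentile on 17 of 30 arrays, of which 11 were at 1 h and 6 at 24 h. The second probe set ran from 4.57 to 5.21 and passed on 14 arrays. The control difference was -0.19 ± 0.12 (SE, log2, 95% interval -0.44 to 0.06, adjusted p = 0.243, limma). Each probe set was thus above that percentile on some arrays and not on others, and the missing call does not show that MPO kept its level.

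The same genes were called lower between 1 and 24 h with particles present. With MWCNT 100 µg/ml, 6 of 7 were called lower, where 17.7% of all genes were. CTSG differed by -3.05, ELANE by -2.82, PRTN3 by -2.80, AZU1 by -2.15 and RNASE2 by -1.43 (log2, adjusted p from 7.18e-12 to 1.49e-05, limma). MYB differed by -0.46 ± 0.17 (SE, log2, adjusted p = 0.0327), and its arrays overlapped between the times, at 8.06, 7.89 and 7.31 against 7.28, 7.28 and 7.32. That call was lost without either of 2 arrays at 1 h, without any array at 24 h and in a fit of these groups alone (adjusted p up to 0.196). It was also lost without the 10 arrays that stood apart (-0.38, adjusted p = 0.239).

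With MWCNT 10 µg/ml 6 of 7 genes were called lower, against 18.5% of all genes, and with TiO2-NB 100 µg/ml 6 of 7 against 20.7%. With TiO2-NB 10 µg/ml 7 of 7 were called lower, against 15.6%. Across these 3 exposures the CTSG differences ran from -3.06 to -2.86, those of ELANE from -2.76 to -2.49 and those of PRTN3 from -2.90 to -2.45. AZU1 ran from -1.98 to -1.85, RNASE2 from -1.31 to -1.21 and MYB from -1.11 to -0.94, and the 24 h arrays of these 6 genes lay below those of 1 h in each exposure, as did those of 23.7%, 23.2% and 18.6% of all genes with MWCNT 10, TiO2-NB 100 and TiO2-NB 10 µg/ml. The MPO call in TiO2-NB 10 µg/ml was -0.32 ± 0.12 (SE, log2, adjusted p = 0.0409, limma) and became -0.07 (adjusted p = 0.563) with both probe sets averaged. It was also lost without the 10 arrays that stood apart (-0.26, adjusted p = 0.184), without 5 of the 6 arrays in turn, with median centring and with these groups fitted alone.

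Leaving out the 10 arrays that stood apart, which leaves 2 per group, kept 6 of 7 genes called lower in the control. There 36.1% of all genes were called in either direction, 1567 of 10050 lower and 2064 higher. CTSG differed by -2.88 and ELANE by -2.16. The order of the 10 group means had the same step for the granule genes. For CTSG, ELANE, PRTN3 and AZU1, 1 of the 9 steps between neighbours in that order was larger than both SDs, the step between the lowest 1 h group and the highest 24 h group. RNASE2 and MYB had 2 such steps, and the second of MYB lay between MWCNT 100 µg/ml and the other groups at 24 h. For RNASE2 the second lay between TiO2-NB 100 µg/ml and MWCNT 100 µg/ml at 24 h, with MWCNT the lowest group (11.45 and 11.30). No other neighbours of these 6 genes were apart by more than both SDs. For MPO 1 step was larger than both SDs, below TiO2-NB 10 µg/ml at 1 h, and the arrays of these neighbours overlapped.

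**Figure D2:**
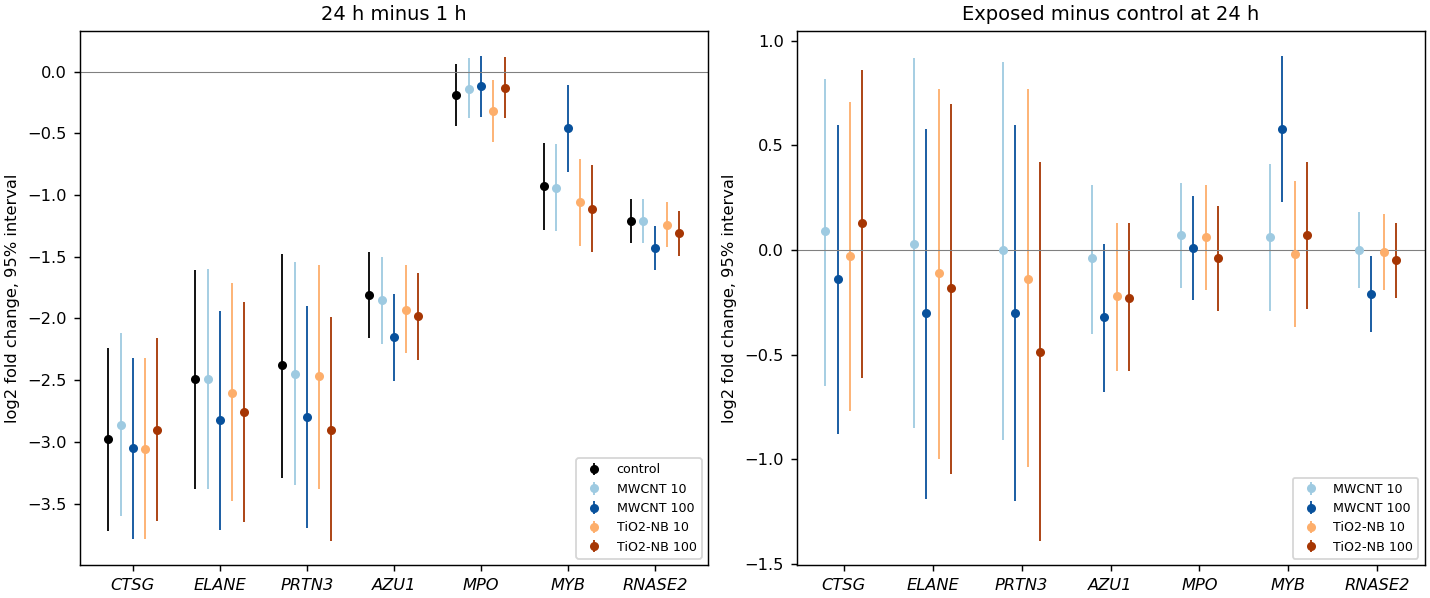
Log2 fold changes of the 7 genes with 95% intervals of the limma fit (n = 3 per group), between 1 and 24 h within each condition (left) and for each exposure against the control at 24 h (right). Time intervals of CTSG, ELANE, PRTN3, AZU1 and RNASE2 lie below -1 in all 5 conditions. Exposure intervals span 0 except MYB and RNASE2 with MWCNT 100 µg/ml, of which MYB alone was called after adjustment.

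Against controls of the same time, 1 of the 7 genes was called. At 24 h MYB was higher with MWCNT 100 µg/ml than in the control. In that comparison 13% of all genes were called, a share near 1 of 7. None of the granule genes was called in either direction with MWCNT 100 µg/ml or TiO2-NB 100 µg/ml. Every exposure was compared with the same control arrays of its time, so the comparisons share those arrays.

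MYB stood at 7.28, 7.28 and 7.32 with MWCNT 100 µg/ml at 24 h, against 6.59, 6.71 and 6.85 in the control. The groups did not overlap, as was the case in this direction for 17.1% of all genes, and the spread of the exposed arrays was 0.03 (SD). The difference was 0.58 ± 0.17 (SE, log2, 95% interval 0.23 to 0.93, adjusted p = 0.0221, limma), or 1.5-fold. With 1 of 7 genes called, 13% of all genes were called, 903 higher and 406 lower (674 and 679 with median centring). The call was lost without replicate 1 of the control (adjusted p = 0.108), without its replicate 2 (0.0529) and without any 1 exposed array (0.0531 to 0.069), at differences from 0.52 to 0.59.

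MYB arrays of the other 24 h groups were at 6.72, 6.74 and 6.85 with MWCNT 10 µg/ml, at 6.67, 6.64 and 6.77 with TiO2-NB 10 µg/ml and at 6.83, 6.76 and 6.76 with TiO2-NB 100 µg/ml. All of them lay within the range of the control arrays. Against TiO2-NB 100 µg/ml, MYB was higher with MWCNT 100 µg/ml by 0.51 ± 0.17 (SE, log2, adjusted p = 0.0297, limma). It was the only 1 of the 7 genes called between the materials, where 24.9% of all genes were called, and groups that did not overlap in this direction were found for 20.9%. Of those calls 1411 were higher and 1094 lower (1054 and 1646 with median centring). The MYB call was lost without any MWCNT array, without replicate 2 or 3 of TiO2-NB (0.0616 to 0.0777) and with median centring (0.45, adjusted p = 0.0532). The difference without the 10 arrays that stood apart was 0.54 (adjusted p = 0.122).

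Between MWCNT doses MYB differed by 0.52 ± 0.17 (SE, log2, adjusted p = 0.0805, limma), which was not called, although the arrays did not overlap. In the same comparison 4.67% of all genes were called, and 13.6% did not overlap in this direction. With these groups fitted alone the adjusted p was 0.0106. The MYB effect of MWCNT 100 µg/ml was larger at 24 h than at 1 h by 0.47 (95% interval -0.02 to 0.96, adjusted p = 0.359), so a difference between the times was not shown. At 1 h, MYB with MWCNT 100 µg/ml differed from the control by 0.11 (95% interval -0.24 to 0.46).

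The intervals of CTSG, ELANE and PRTN3 with MWCNT 100 µg/ml at 24 h were wide. The fit had no term for the arrays that stood apart, so their spread is part of the intervals, here and with TiO2-NB. A missing call of these genes therefore does not show equal levels. CTSG stood at 8.79, 9.38 and 9.42, against 9.69, 9.64 and 8.69 in the control, and differed by -0.14 (95% interval -0.88 to 0.60). ELANE stood at 8.76, 9.68 and 9.76 and differed by -0.30 (-1.19 to 0.58). The low array was replicate 1 in the exposed group and replicate 3 in the control for both genes, and the groups overlapped.

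PRTN3 with MWCNT 100 µg/ml stood at 6.03, 6.65 and 6.60 and differed from the control by -0.30 (95% interval -1.20 to 0.60). AZU1 stood at 10.53, 10.56 and 10.43 and differed by -0.32 (-0.68 to 0.03, adjusted p = 0.243, limma). RNASE2 stood at 11.32, 11.22 and 11.35 and differed by -0.21 (-0.39 to -0.03, adjusted p = 0.131). All 3 exposed arrays of RNASE2 were near the lowest control array, at 11.30, and without that control array the difference was -0.31 and was called (adjusted p = 0.0198). MPO differed by 0.01 (-0.24 to 0.26).

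With TiO2-NB 100 µg/ml at 24 h, 0 of 7 genes were called by limma, where 22.1% of all genes were, and the lowest adjusted p was 0.392. At an unadjusted p under 0.05 3296 of all genes passed. PRTN3 stood at 5.40, 6.55 and 6.77 and differed by -0.49 (95% interval -1.39 to 0.42), its replicate 1 being the lowest PRTN3 value of the series. AZU1 at 10.25, 10.67 and 10.89 differed by -0.23 (-0.58 to 0.13), and ELANE at 8.79, 9.84 and 9.93 by -0.18 (-1.07 to 0.70). CTSG at 8.86, 9.79 and 9.74 differed by 0.13 (-0.61 to 0.86), and RNASE2 at 11.46, 11.48 and 11.42 by -0.05 (-0.23 to 0.13). In each of these genes the exposed and the control arrays overlapped.

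Without the 10 arrays that stood apart, differences of the granule genes at 24 h passed the threshold. For MWCNT 100 µg/ml PRTN3 then differed by -0.57 (adjusted p = 0.000386), ELANE by -0.46 (0.00105), AZU1 by -0.48 (0.0122) and RNASE2 by -0.32 (0.00987, all limma). CTSG differed by -0.26 (0.43) and MYB by 0.65 (0.0889). With 4 of 7 genes called, 15.8% of all genes were called. With TiO2-NB 100 µg/ml, PRTN3 differed by -0.54 (0.000517) and ELANE by -0.30 (0.0145), 2 of 7 genes against 21.6% of all. The arrays were chosen after the data were seen, and leaving out the array farthest from the others shrinks the spread of genes that follow the same component, so these p-values are too small. Of the left-out arrays, replicate 1 of MWCNT 100 µg/ml and replicate 3 of the control stood at 6.03 and 5.78 for PRTN3. They stood at 8.76 and 8.74 for ELANE, 10.53 and 10.54 for AZU1 and 11.32 and 11.30 for RNASE2. Those arrays thus did not show the falls, and leaving them out made the estimates larger as well. Replicate 1 of TiO2-NB 100 µg/ml, at 5.40 for PRTN3 and 8.79 for ELANE, was below that control array for PRTN3 only.

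The response at 24 h minus that at 1 h was called for 0 of 7 genes in any exposure with all arrays (limma, lowest adjusted p = 0.359), where 3.71% of all genes were called for MWCNT 100 µg/ml and 16.3% for TiO2-NB 100 µg/ml. Without the 10 arrays, PRTN3 was called for both materials at 100 µg/ml, at -0.78 (0.00158) and -0.57 (0.00821). ELANE was called for both as well, at -0.53 (0.0106) and -0.39 (0.0369), so 2 of 7 genes were called where 6.53% of all genes were for MWCNT and 12.8% for TiO2-NB. At 10 µg/ml and 24 h, 0 of 7 genes were called, with 0% of all genes for MWCNT and 0.0199% for TiO2-NB. At 1 h 0 of 7 were called with any exposure, where 1.15% of all genes were called with TiO2-NB 100 µg/ml and 0% with each of the others. Between the materials at 10 µg/ml 0 of 7 were called at 24 h (0.00995% of all genes) and at 1 h (0%), and at 100 µg/ml and 1 h 0 of 7 (1.42%). Between the doses of TiO2-NB 0 of 7 were called at 24 h (13.5%) and at 1 h (0.0796%), and between those of MWCNT at 1 h 0 of 7 (0%). Without the 10 arrays, ELANE (-0.46, adjusted p = 0.0023), PRTN3 (-0.49, 0.00307) and AZU1 (-0.44, 0.0363) were called between MWCNT doses at 24 h, 3 of 7 against 7.22% of all genes. PRTN3 was then called between TiO2-NB doses at 24 h (-0.33, 0.0186), 1 of 7 against 14.6%.

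CTSG, ELANE and PRTN3 were among the most variable genes within groups. At 24 h the within-group SD of ELANE was 0.75, above that of 99.9% of all genes, and those of PRTN3 and CTSG were 0.67 and 0.53, above 99.8% and 99.6%. At 1 h PRTN3 had an SD of 0.48, CTSG of 0.42 and ELANE of 0.30, above 99.4%, 99% and 96.2%. AZU1 had 0.17 at 1 h and 0.27 at 24 h, above 77% and 95.5%, and MPO 0.14 and 0.16, above 61.8% and 77%. RNASE2, at 0.10 and 0.11, was above 30% and 46.8% of all genes. MYB went the other way between the times, with 0.30 at 1 h, above 96.5% of genes, and 0.07 at 24 h, above 17.7%.

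These deviations were shared between the genes. In each of the 10 groups the array with the lowest CTSG, ELANE and PRTN3 was the array that stood apart on all other genes, and AZU1 was lowest there in 9 groups and RNASE2 in 8. Over 15 arrays per time, deviations from the group means correlated with the component at 0.90 for CTSG at 1 h and 0.98 at 24 h, at 0.99 and 0.98 for ELANE and at 0.99 and 0.97 for PRTN3. AZU1 gave 0.86 and 0.84, and RNASE2 0.87 and 0.64. MYB gave -0.29 at 1 h and -0.74 at 24 h, so at 24 h it tended to be higher where the granule genes were lower. The MYB deviations at 24 h were small, with an SD of 0.07. With MWCNT 100 µg/ml the array that stood apart was at 7.28 for MYB, against 7.28 and 7.32, and so was not higher. The arrays share their cultures and labelling with the component, and the 3 deviations of a group sum to 0, so these correlations are a description.

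**Figure D3:**
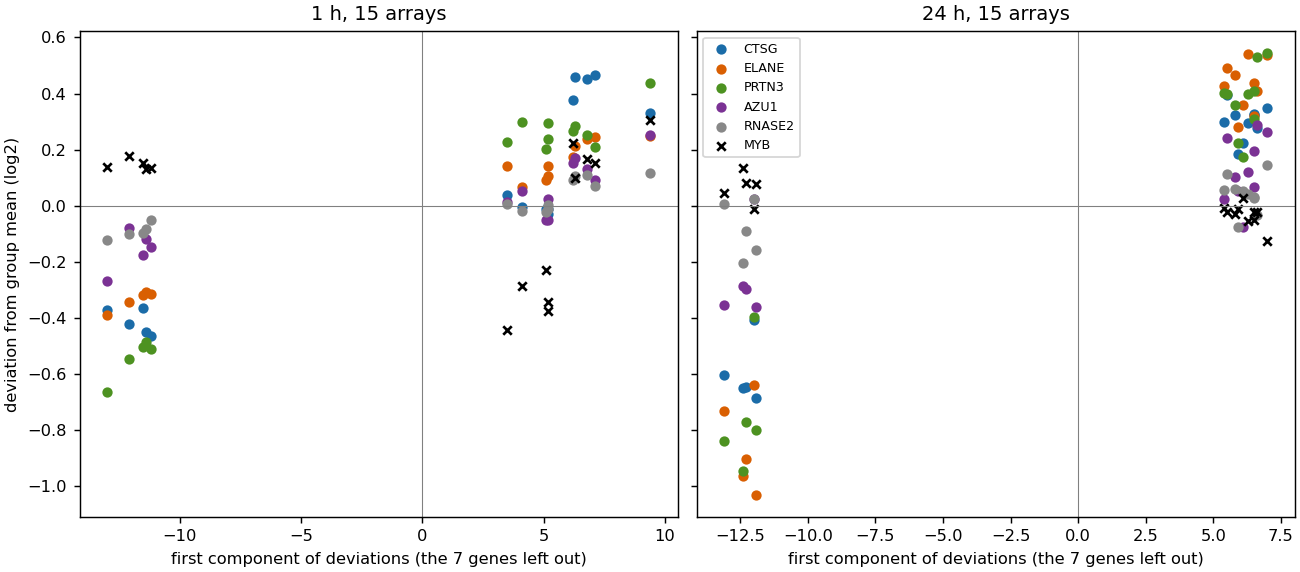
Deviation of each gene from its group mean (log2, vertical axis) against the first component of the deviations of all other genes (horizontal axis), for the 15 arrays of 1 h and the 15 of 24 h. Points of CTSG, ELANE and PRTN3 rise along the component at both times, and MYB falls along it at 24 h (r = -0.74).

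Between the 7 genes the pattern over all 30 arrays was set by time. CTSG, ELANE, PRTN3, AZU1 and RNASE2 correlated with each other at 0.96 to 0.99, and MYB with them at 0.76 to 0.84. Around the group means MYB turned to -0.79 to -0.86 with these genes at 24 h and ran from -0.36 to 0.14 at 1 h. In all 5 groups at 1 h the lowest MYB array was replicate 3, at 7.31 to 7.52, which was not the array that stood apart.

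Other genes of azurophil granules moved in both directions. Of 7 tested besides the 7 described, 3 fell and 1 rose in the controls between 1 and 24 h, with a median of -0.25 on the log2 scale against 0.03 for all genes. Of all 10050 genes, 1621 were called lower and 2087 higher in this comparison, which also stands beside the lists that follow. LYZ (lysozyme) fell by 1.67 ± 0.45, SRGN (serglycin, the proteoglycan that packs granule proteases) by 0.93 ± 0.16 and CFD by 0.66 ± 0.06 (SE, log2). CTSC, the dipeptidase that activates CTSG, ELANE and PRTN3 in the granule, was the 1 that rose, by 0.63 ± 0.05, and was named after its values were seen. The proteases and the enzyme that activates them thus changed in opposite directions.

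At 24 h CTSC and CFD were lower with both materials at 100 µg/ml, 2 of these 7 genes in each comparison, with medians of -0.15 for MWCNT and 0.00 for TiO2-NB. CTSC differed by -0.33 ± 0.05 with MWCNT and by -0.84 ± 0.05 with TiO2-NB, and was higher with MWCNT than with TiO2-NB by 0.52 ± 0.05 (SE, log2, adjusted p = 8.72e-08, limma). CFD, the neighbour of ELANE, differed by -0.27 ± 0.06 and -0.33 ± 0.06.

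Of 8 inhibitors of the granule proteases, 2 fell and 2 rose in the controls with time, with a median of -0.03. SLPI, the secreted inhibitor of elastase and cathepsin G, fell by 1.55 ± 0.31, and SERPINB1, which inhibits all 3 granule proteases inside the cell, by 0.69 ± 0.10 (SE, log2). A2M, a broad protease trap, rose by 0.88 ± 0.14. At 100 µg/ml of MWCNT SERPINA1 alone of the 8 was called, higher by 0.52 ± 0.13 (adjusted p = 0.00705, limma), which was lost without replicate 1 of the control or of the exposed group (up to 0.0568).

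Of 15 transcription factors and receptors of progenitors, 7 fell and 0 rose in the controls with time, with a median of -0.13. GFI1, a repressor needed for granulocyte development, fell by 1.42 ± 0.10, CEBPD by 1.38 ± 0.13 and IRF8, which directs progenitors to the monocyte side, by 1.07 ± 0.12 (SE, log2). With MWCNT 100 µg/ml 2 were higher and 2 lower. MYC, a driver of proliferation, was higher by 0.59 ± 0.14 and CEBPA lower by 0.39 ± 0.11. The MYC call was lost with these groups fitted alone (adjusted p = 0.0513), and that of CEBPA without replicate 1 of either group (up to 0.085). With TiO2-NB 100 µg/ml CEBPB was higher by 0.76 ± 0.10, while LMO2 and FLT3 differed by -0.51 ± 0.07 and -0.50 ± 0.12.

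Of 8 genes of the MYB family and its cofactors, MYBL1 and MYBL2, the paralogs of MYB, fell in the controls by 1.28 ± 0.18 and 0.44 ± 0.11 (SE, log2), and 1 gene rose. At 24 h with MWCNT 100 µg/ml 3 of the 8 were higher and 0 lower, with a median of 0.01. MYBL1 was higher by 1.02 ± 0.18 (adjusted p = 0.000269, limma), a larger difference than that of MYB. Its mean was 4.08 in the 24 h control, below the 25th percentile of those arrays (4.8 to 4.89), and 5.10 with MWCNT. Both its fall with time and this difference thus rest on a control level near the low end of the array's range. BCL2, a target of MYB, and MYBL2 were higher by 0.39 ± 0.11 and 0.35 ± 0.11, and these calls were lost under 4 and 6 of the alternatives. With TiO2-NB 100 µg/ml, where MYB was not called, BCL2 was higher by a like amount, 0.4 ± 0.11 (adjusted p = 0.0108, limma). That call was lost under 3 alternatives.

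Cell cycle genes fell with time and were higher with MWCNT 100 µg/ml, as MYB was. In the controls 12 of 12 fell with time, with a median of -1.34, among them BUB1 at -2.68 ± 0.22, CCNB1 at -2.61 ± 0.16 and TOP2A at -2.56 ± 0.15 (SE, log2). At 24 h with MWCNT 100 µg/ml 10 of 12 were higher than in the control, with a median of 0.83, and 6 of 12 without replicate 1 of the control. TYMS and RRM2, enzymes of nucleotide supply, were higher by 1.49 ± 0.23 and 1.38 ± 0.24 and the kinase CDK1 by 1.16 ± 0.21. With TiO2-NB 100 µg/ml 1 of 12 was called higher, with a median of 0.36, but 0 without replicate 2 of the control and 3 without its replicate 3. Without the 10 arrays that stood apart, 7 of 12 were called with TiO2-NB and 10 with MWCNT. Between the materials 6 of 12 were higher with MWCNT, with a median of 0.48 (5 to 7 under the other settings and with 1 array left out). Whether MYB is part of the same change was not tested.

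**Figure D4:**
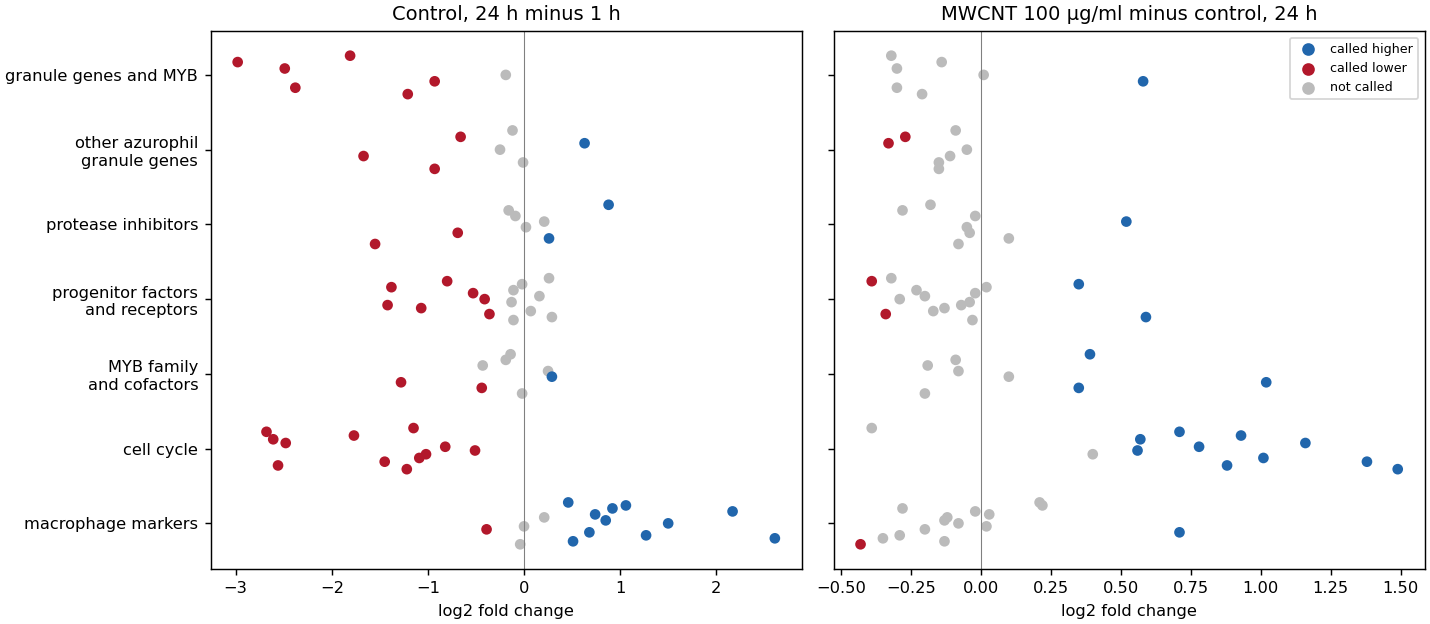
Log2 fold changes (horizontal axis) of the 7 genes and of the related lists, each point 1 gene, for the control between 1 and 24 h (left) and for MWCNT 100 µg/ml against the control at 24 h (right), coloured by the limma call. The 12 cell cycle genes lie below 0 on the left, and 10 of them are called higher on the right, where MYB is the only 1 of the 7 genes called.

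Macrophage markers moved against the granule genes with time. Of 15, 11 rose and 1 fell in the controls, with a median of 0.74, where 2087 of all 10050 genes rose and 1621 fell. MSR1, CD163 and ITGAM rose by 2.61 ± 0.21, 2.17 ± 0.15 and 1.5 ± 0.16 (SE, log2). At 100 µg/ml of MWCNT 1 was higher and 1 lower, and with TiO2-NB 100 µg/ml 1 was higher and 4 lower. Of 6 tested genes of the later, specific and tertiary granules, 2 rose and 1 fell with time, with a median of 0.07. MMP8, neutrophil collagenase, was higher with MWCNT 100 µg/ml by 1.41 ± 0.31 (adjusted p = 0.00276, limma).

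Of the markers of other cells, PRG2 of eosinophils was called with time in the control, 0.51 ± 0.18 higher at 24 h, and none of the others tested. The call was lost without any of 5 control arrays. In MWCNT 100 µg/ml IL5RA was called, at -0.34 ± 0.11 (adjusted p = 0.0461, limma), which was lost under 19 alternatives. Between MWCNT and TiO2-NB at 100 µg/ml and 24 h, where MYB was called, 2 of the 14 markers were lower with MWCNT. These were HBB of erythroid cells (-0.39, adjusted p = 0.0235) and CXCR1 of mature neutrophils (-0.31, 0.0386, limma), and these calls were lost under 4 and 7 alternatives and without the 10 arrays that stood apart. With time in TiO2-NB 100 µg/ml, 9 of the 14 markers were higher and 1 lower, where 2624 of all genes were higher and 2077 lower. Against the control, TiO2-NB 100 µg/ml had 2 of the 14 lower and 0 higher at 1 h, and 0 called at 24 h. The log2 of the summed level of the eosinophil and basophil list ran from 7.09 to 7.36 at 1 h and from 7.14 to 7.70 at 24 h, that of mature neutrophil markers from 6.85 to 7.18 and from 6.74 to 7.10. The part of such cells in the levels of the granule genes was not tested.

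The genes most like the mean of the 7, each scaled to its own spread, over the 30 arrays, by Pearson correlation of log2 levels, were CES1 (0.986), HEG1 (0.980) and ZFP36L2 (0.976), and those most opposite were CHST15 (-0.978), FGR (-0.978) and FABP4 (-0.976). Much of this comes from the step in time. With the means of each time taken off, JAG1 (0.916), SRGN (0.896) and ABHD2 (0.895) were the most similar, of which JAG1 was higher at 24 h than at 1 h by 2.01 on the log2 scale. By single genes, CES1 was the closest for CTSG (0.989), AZU1 (0.993) and RNASE2 (0.994), SLPI for ELANE (0.990), AURKA for PRTN3 (0.984) and ING2 for MYB (0.960). The closest for MPO reached 0.677. Arrays share labelling and hybridisation, so these values are a description.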

How the data were processed

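Affymetrix arrays with probes near the 3-prime end of transcripts measured 30 RNA samples. The deposited values are log2 intensities. The submitters' processing notes name RMA for making them, with no version, and the values were used as deposited. Arrays have no read depth, and 3 per group set the precision. Of 22277 probe sets, 62 were controls, 19064 matched 1 gene in the platform annotation, 1043 several and 2108 none, and only those of 1 gene were used. The filter on low values asked for a level over an array's 25th percentile on 3 or more arrays (15309 passed). Each of the 10050 genes was read from its passing probe set of highest mean, and 3419 had several. The limma fit (version 3.58.1, R 4.3.3) used 10 group means, left 20 residual degrees of freedom and gave two-sided tests, with the Benjamini-Hochberg adjustment made separately in each of 25 comparisons. The fit was tested on simulated data with noise drawn independently for each gene and array. These data lack the deviations that genes share within groups, so that test cannot tell how the fit handles them. The 7 genes, the related lists and most alternatives were chosen with earlier results of these data known. The text names the 7 genes in every comparison, up to 3 called genes of each list with the largest change, other list genes where a count turns on them, and the genes of highest correlation. Alternatives were other filters, probe set rules, scalings, fits and leaving out each array, and, chosen after seeing the data, leaving out the 10 arrays that stood apart. Replicate numbers were checked as pairs: of 60 equally numbered pairs within a time, 38 correlated above 0.1 and 21 below 0 in their deviations from the group means (-0.53 to 0.73), and 20 of 30 arrays were closest to their own number, so they were not used in the fit.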

Additional observations from a re-analysis of the deposited data

Results flagged for a closer look

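With all arrays, 0 of the 7 genes were called by the test of the response at 24 h against that at 1 h, which does not show equal responses. Genes of the related lists were called (limma, difference of the log2 responses to 100 µg/ml). Only list genes already named as called at 24 h with the same material were looked at. Those 24 h values also enter this test, so the choice favours a call, and these calls are not set against the 7 genes. Of all genes, 3.71% were called for MWCNT and 16.3% for TiO2-NB. With MWCNT, CTSC differed by -0.28 (adjusted p = 0.0262), TYMS by 1.48 (0.01), RRM2 by 1.34 (0.0267) and CDK1 by 1.2 (0.0252). Their responses at 1 h lay between -0.05 and 0.04.

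With TiO2-NB, CTSC differed by -0.94 (adjusted p = 4.59e-09, limma) and CFD by -0.31 (0.0241). Among macrophage markers CD163 differed by -1.05 (0.00144), MSR1 by -1.0 (0.0233) and TREM2 by -0.74 (0.000652). Among progenitor genes CEBPB differed by 0.75 (0.00129), LMO2 by -0.57 (0.000581) and FLT3 by -0.58 (0.0255).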

How the results depend on the processing

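Under 39 alternatives, 30 of which left out 1 array, 1164 of 1170 time results of the 6 genes that fell kept their direction and call, as did 6771 of 6800 results over all 7 genes and comparisons. Of the others 25 lost and 4 gained a call, and 0 reversed. The cause was not tested. The stricter filter gave no value for MPO. With 1 array left out, the count of the 7 genes called ran from 0 to 2 for MWCNT 100 µg/ml against the control at 24 h (1 with all arrays) and from 0 to 1 for MWCNT against TiO2-NB (1 with all arrays). Median centring gave 0 for the latter. Without the 10 arrays that stood apart, the counts were 4 for MWCNT 100 µg/ml, 2 for TiO2-NB 100 µg/ml (0 with all arrays) and 0 between the materials. Over all genes, TiO2-NB 100 µg/ml had 1304 calls with the groups compared alone and 3377 with all probe sets, in place of 2219, and MWCNT 100 µg/ml had 778 without replicate 1 of the control, in place of 1309.

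With the replicate numbers as a replicate block, 6 of the 7 genes were called in the control between 1 and 24 h, 1 with MWCNT 100 µg/ml, 0 with TiO2-NB 100 µg/ml and 1 between the materials. The block added the MYB call between MWCNT doses (adjusted p = 0.0423) and changed no other of these counts. The labels do not say that equal numbers share a culture or day, and at 24 h the array that stood apart was replicate 3 in MWCNT 10 µg/ml and replicate 1 in MWCNT 100 µg/ml.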
